A study of Pimephales promelas with 27 samples.

Results

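A set of 50 microarray probes had a higher mean signal in exposed, newly hatched fathead minnow than in the matching salt control. This held for each of 3 sources of naphthenic acids, given to separate groups, at both doses of each source. The set was chosen by its measured values. For each of the 10108 probes that were well above background on all 27 arrays, of 15208 probes in all, 6 differences were taken, each the mean of a dose minus the mean of the salt arrays of the same source. The probes were ranked by the smallest of their 6 differences, and the 50 with the largest value of it were kept. They are called members here and numbered by that rank.

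Fathead minnow, Pimephales promelas, is a North American freshwater fish and a standard species of toxicity tests. The series measured total RNA of newly hatched fish that had been exposed as embryos until hatch, to follow the response to rising doses. The groups were fresh oil sands process water with a salt control, 5 ppm and 10 ppm, aged oil sands process water with a salt control, 10 ppm and 20 ppm, and pure naphthenic acids with a salt control, 1.25 ppm and 2.5 ppm. Each of the 9 groups had 3 one-colour Agilent arrays. The labels give no strain, do not describe the salt control or what the ppm of the process waters counts, and are silent on whether samples of 1 group were kept or spawned apart. The p-values below therefore rest on a spread between samples that may be technical. The labels name no tissue, and in RNA of bulk samples more cells of a type and more RNA per cell cannot be told apart.

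Naphthenic acids are carboxylic acids of petroleum, many of them with saturated rings, and they are concentrated in the water left over when bitumen is washed out of oil sand. They act as surfactants and are among the components of that water that are studied for their toxicity to fish. Process water holds them in a mixture with salts and other organic compounds, and the mixture changes as the water ages in ponds.

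The probes could not be given gene names, since the array names are those of contigs and sequence entries, and 0 of them matched the 64593 genes of the RefSeq table for fathead minnow (assembly fPimPro1.hap1.1). The functions of the members, and the tissue against its marker genes, were therefore not examined. Among the members 44 carried contig names, 5 carried sequence numbers and 1 another name. Contig names made up 88.0% of the set and 85.2% of the 10108 probes, and sequence numbers 10.0% and 14.6%. The 44 contig names held 44 different contig numbers, so no pair of members was labelled as coming from 1 contig.

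Values are given as log2 of the scanner's processed signal after subtracting the array's own 75th percentile, which lay between 582 and 2044 in signal units. A value of 0 is therefore at that percentile of the array, and a difference of 1 is a 2-fold change. The arrays had 10930 to 14981 probes well above background. On 5 arrays the probes were ordered differently in the scanner file and in the authors' value table, with Spearman correlations of 0.871 to 0.982, below a limit of 0.99 that was set after the values had been seen. These were fresh 10 ppm replicate 1, aged salt replicates 7 and 9, and aged 20 ppm replicates 4 and 6. Leaving them out keeps 1 array each of aged salt and aged 20 ppm, whose spread is then taken from the other groups. The groups of pure naphthenic acids held none of them.

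The smallest of the 6 differences was 1.78 for the first member and 0.67 for the last, which are 3.43-fold and 1.60-fold. Of the 50 members, 13 were at least 2-fold above salt at every dose of every source. The last member stood just inside the limit, with a smallest difference of 0.6746, and the first probe outside it had 0.6738. A total of 1636 of the 10108 probes (16.2%) had all 6 differences above 0, and 1302 had all 6 below 0. The largest fall common to all 6 comparisons was -0.98, and 2 probes lay below salt in all 6 comparisons by at least the size of the last member's smallest difference.

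The first member, probe UF_Ppr_AF_111904, was among the dimmer members in the salt controls and had the largest difference of the set. In the pure series it had values of -3.77, -3.65 and -3.12 in salt, 0.48, -0.11 and 0.69 at 1.25 ppm, and 2.36, 2.12 and 2.44 at 2.5 ppm. In the fresh series it had -3.29, -2.93 and -3.31 in salt, -0.33, 0.67 and 0.05 at 5 ppm, and -0.43, 0.996 and 0.18 at 10 ppm. In the aged series it had -2.11, -3.21 and -1.97 in salt, -0.57, -1.85 and 0.47 at 10 ppm, and 1.54, 0.73 and 0.76 at 20 ppm. Every one of its 18 dose arrays lay above all 9 salt arrays, and the 2 highest of its 9 salt values were the aged salt arrays that stand apart. UF_Ppr_AF_111904 differed from salt by 3.86 at pure 1.25 ppm and 5.82 at pure 2.5 ppm, by 3.31 and 3.42 at fresh 5 and 10 ppm, and by 1.78 and 3.44 at aged 10 and 20 ppm. The difference of 5.82 is 56.6-fold. Its size depended on the background correction, since with normexp no member differed from salt by more than 4.80 at pure 2.5 ppm.

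The second member was probe UF_Ppr_AF_111167. In the pure series it had values of -1.26, -0.91 and -1.33 in salt, 1.14, 0.72 and 1.06 at 1.25 ppm, and 2.73, 3.23 and 3.38 at 2.5 ppm. In the fresh series it had -0.89, -0.72 and -1.42 in salt, 0.59, 1.37 and -0.0026 at 5 ppm, and 1.66, 0.98 and 1.77 at 10 ppm. In the aged series it had -0.35, -0.49 and -0.71 in salt, 0.47, 1.21 and 2.52 at 10 ppm, and 1.85, 2.39 and 1.56 at 20 ppm. All 18 of its dose arrays again lay above all 9 of its salt arrays, and its 3 arrays at pure 2.5 ppm were the highest of the 27. Its differences from salt were 2.15 and 4.28 in the pure series, 1.67 and 2.49 in the fresh series, and 1.91 and 2.45 in the aged series, in order of rising dose. The largest is 19.5-fold.

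Members 3 and 4 each overlapped with salt in 1 comparison, through 1 aged salt array. Member 3 had values of -3.45, -3.98 and -1.28 in aged salt, -1.60, -1.26 and -1.11 at aged 10 ppm, and -0.26, 0.09 and 0.06 at aged 20 ppm. Member 4 had -1.15, -0.97 and 0.65 in aged salt, 0.87, 0.57 and 1.57 at aged 10 ppm, and 0.81, 1.67 and 1.38 at aged 20 ppm. In both, the highest salt value was replicate 9, one of the arrays that stand apart. That array did not stand high for the members as a whole. Their median there lay at -0.44 relative to the aged salt mean, against 0.25 and 0.20 on replicates 7 and 8.

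Members 5 and 6 were bright in the controls and higher still at every dose. Member 5 had values of 4.65, 4.54 and 4.85 at pure 2.5 ppm, against 1.94, 1.11 and 1.56 in pure salt. Member 6 had 3.51, 3.50 and 3.14 at pure 2.5 ppm, against 0.25, 0.45 and 0.78 in pure salt. The lowest exposed value of each lay more than 2 log2 units above its highest salt value there. Both had all 18 dose arrays above all 9 salt arrays.

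Over the 50 members the median difference from salt was 1.08 and 1.25 at the lower and higher dose of fresh process water, 1.12 and 1.25 at those of aged process water, and 1.13 and 1.83 at those of the pure acids. Over all 10108 probes the medians at the same doses were -0.0027, 0.10, -0.03, 0.0083, -0.02 and -0.06. The choice of the members fixed the sign of these differences and set a floor under their size, so the values are a description. The exposure with the largest difference was pure 2.5 ppm in 41 members, fresh 10 ppm in 3, aged 10 ppm in 3, aged 20 ppm in 2 and fresh 5 ppm in 1. The smallest difference, which set the rank, was at fresh 5 ppm in 16 members, aged 10 ppm in 13, pure 1.25 ppm in 10, aged 20 ppm in 6 and fresh 10 ppm in 5. At pure 2.5 ppm 46 members were at least 2-fold above salt and 22 at least 4-fold.

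The rule set a floor under the group means, and the single arrays lay around them as follows. Relative to the mean of the salt arrays of the source, the median of the members was 1.27, 1.1 and 1.13 on the arrays at pure 1.25 ppm and 2.11, 1.73 and 1.77 on those at pure 2.5 ppm. It was 1.06, 1.08 and 1.01 at fresh 5 ppm and 1.18, 1.03 and 1.56 at fresh 10 ppm. It was 0.98, 1.06 and 1.36 at aged 10 ppm and 1.33, 1.33 and 1.21 at aged 20 ppm. The 3 arrays at pure 2.5 ppm were higher than the 15 other dose arrays, and the lowest of the 18 was an array at aged 10 ppm. On the salt arrays the medians lay between -0.44 and 0.25. All 50 members were above their salt mean on 16 of the 18 dose arrays, and 49 were on replicate 1 of aged 10 ppm and replicate 5 of aged 20 ppm. Over the 10108 probes 38.1% to 62.8% were above the salt mean on a dose array. These arrays entered the choice of the members, so the counts are a description.

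Members differed in how even their 6 differences were. The gap between the largest and the smallest of the 6 had a median of 0.96 and ran up to 4.04, in the first member. It was under 0.5 in 6 members and lowest, 0.16, in member 23. In the pure series that member had values of 1.23, 0.63 and 1.01 in salt, 1.93, 1.87 and 1.76 at 1.25 ppm, and 2.35, 1.69 and 1.57 at 2.5 ppm. Its 6 differences lay between 0.90 and 1.05, a near 2-fold elevation at every dose and source. Members 23 and 43 were picked for description by their spread, with their values in view.

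The least repeatable member was number 43, with a pooled within-group SD of 1.31 (n = 3 per group), against a median SD of 0.36 over the members and 0.28 over the 10108 probes. It had values of 2.46, 1.25 and -0.30 at pure 2.5 ppm, against -2.63, -2.84 and -0.96 in pure salt. Its dose and salt arrays overlapped in 3 of the 6 comparisons. It also had the widest gap among the means of the 3 salt controls, 2.76.

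In a test across all 14738 probes that were well above background on at least 3 arrays, with limma's moderated statistic and a Benjamini-Hochberg adjusted p below 0.05, 9 members were called higher than salt at fresh 5 ppm, where 0.0746% of the tested probes were. At fresh 10 ppm 20 members were called, against 0.231% of all probes. At aged 10 ppm the count was 12, against 0.115%, and at aged 20 ppm 21, against 0.271%. In the pure series 15 were called at 1.25 ppm, against 0.170%, and 41 at 2.5 ppm, against 1.40%. Since the same differences chose the members, these counts show how far the chosen sizes exceeded the array-to-array spread and nothing more. With normexp background correction the counts were 0 and 2 in the fresh series and 0 and 0 in the aged series. In the pure series they were 0 and 22. With normexp 24 to 41 members had an unadjusted p below 0.05 in limma, against 167 to 517 of all 14738 tested probes. With only the 2 groups compared in the fit, limma called 32 members at pure 2.5 ppm and 0 at the other doses. At those other doses 37 to 48 had an unadjusted p below 0.05, given without the share of all tested probes and not read further. In the fit with all groups, at least 1 dose of every source was called in 17 members, all 6 comparisons in 4, and none in 9. The share of all tested probes was not taken for these counts, so they are not read as a result about the members. Without the 5 arrays the counts were 14 and 17 in the fresh series, 3 and 3 in the aged series, and 23 and 44 in the pure series, from the lower to the higher dose. The median difference of the members was then 1.32 at fresh 10 ppm. In the aged series it was 0.96 at 10 ppm and 1.02 at 20 ppm, and 49 and 47 members stayed above 0 in the aged series.

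The counts called at both fresh doses, at aged 10 ppm and at pure 1.25 ppm moved by over 1.5 times with single arrays. At fresh 5 ppm 0 or 1 members were called when any array of the comparison was left out. The ranges were 9 to 27 at fresh 10 ppm, lowest without fresh salt replicate 9 and next without fresh 10 ppm replicate 3 (11) and fresh salt replicate 8 (13). They were 1 to 38 at aged 10 ppm, lowest without aged 10 ppm replicate 3 and highest without aged salt replicate 8, when 4505 of all tested probes were called, 3924 of them lower than salt. Without aged salt replicate 9 the count was 5. They were 14 to 20 at aged 20 ppm, 5 to 11 at pure 1.25 ppm and 32 to 41 at pure 2.5 ppm. At pure 1.25 ppm, leaving out replicate 1 or 3 gave 6 calls, and leaving out salt replicate 7, 8 or 9 gave 9, 5 and 7. Except for aged salt replicate 8, these counts and those without the 5 arrays are given without the share of all tested probes. They are therefore not read as a result about the members. The median differences of the same members, chosen with every array, lay between 0.87 and 1.94 when single arrays were left out.

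Separation of the single arrays was more frequent than calls. All 3 dose arrays lay above all 3 salt arrays of the source in 49 members at fresh 5 ppm, where 12.0% of the 10108 probes did so, and in 49 at fresh 10 ppm, against 12.0%. The count was 38 at aged 10 ppm, against 8.43%, and 45 at aged 20 ppm, against 8.05%. It was 45 at pure 1.25 ppm, against 8.92%, and 46 at pure 2.5 ppm, against 10.8%. In 32 members the arrays separated in all 6 comparisons, which 0.791% of the probes did. In 22 members all 18 dose arrays lay above all 9 salt arrays of any source, against 0.425% of the probes, and 8 of the first 10 members were among them. The rule used these differences, so no more is read from the shares.

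The differences could also be read in arrays left out of the ranking. The rule was applied again to the 10108 probes with all arrays of 1 of the 4 slides left out of the group means, and the 50 probes it then picked were read on that slide alone. The filter that gave the 10108 probes had used every array. On slide 2, with 37 of the picks being members, 48 of the 50 picks were above salt at fresh 10 ppm with a median of 1.51, 48 at aged 10 ppm with a median of 1.15, and 44 at pure 1.25 ppm with a median of 0.78. Among all 10108 probes 54.2%, 40.5% and 43.4% lay above salt in the same 3 comparisons. On slide 3, with 39 picks being members, 48 picks were above salt at fresh 5 ppm with a median of 0.98, 48 at aged 20 ppm with 1.11, and 49 at pure 2.5 ppm with 2.05. The shares of all probes were 53.5%, 54.2% and 52.0%. On slide 4, with 34 picks being members, 38 picks were above salt at aged 10 ppm with a median of 0.97 and 41 at aged 20 ppm with 1.48, against 49.9% and 52.9% of all probes. Each of these comparisons sets 1 dose array against 1 or 2 salt arrays, so no test was run, and the 4 aged ones each hold 1 array that stands apart. Both readings on slide 4 used the same salt array, aged salt replicate 9. It was the lowest salt array for the members, with a median of -0.44 relative to the aged salt mean. It was also the only salt array of slide 4, and slide 1 held no salt array. Every fresh and pure salt array lay on slides 2 and 3, while each dose group had an array on slide 1 and an array on slide 4. The 6 differences over all slides therefore partly compare different slides, and dose and slide cannot be fully told apart in them. Counts with slide as a block are not given here for these differences.

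The rule did not rank the probes by the step between the doses of a source, and this step was tested. The rule treats both doses alike, so it did not set the sign of the step. The step is still drawn from the same group means that the rule used. The members were chosen for their differences from salt, and the tested probes as a whole were not. The members' step counts beside those of all probes are therefore a description. Over the 10108 probes, 98 were at least 2-fold above salt at pure 1.25 ppm and 212 at pure 2.5 ppm. Whether other raised probes had a like step was not tested. Each step doubles the dose. In the pure series 47 of the 50 members were higher at 2.5 ppm than at 1.25 ppm, with a median step of 0.69. Over all 14738 tested probes the median was -0.07, with 37.8% above 0. In 33 members every array at 2.5 ppm lay above every array at 1.25 ppm, which 5.25% of the 10108 probes did. The pure step passed the test in 2 members, which were the only 2 of all tested probes to pass (0.0136%; limma, Benjamini-Hochberg adjusted p below 0.05), and 29 members and 518 of all tested probes had an unadjusted p below 0.05.

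The 2 members that passed were numbers 16 and 17, named here after their values were seen. Member 16 had values of 3.64, 3.23 and 3.21 at pure 2.5 ppm, against 2.09, 2.18 and 2.02 at pure 1.25 ppm. The groups were more than 1 log2 unit apart, and the step was 1.26 ± 0.19 (SE, n = 3 arrays each; limma adjusted p = 0.0219). Member 17 had 4.42, 4.12 and 4.30 at pure 2.5 ppm, against 2.43, 1.59 and 1.02 at pure 1.25 ppm, a step of 2.60 ± 0.41 (SE, n = 3 arrays each; limma adjusted p = 0.0303). At 1.25 ppm member 17 was 0.95 above its salt mean, and at 2.5 ppm 3.55 above it, which is 11.7-fold. Its steps in the process waters were -0.06 ± 0.41 in the fresh series and -0.07 ± 0.41 in the aged series (SE), with adjusted p of 0.948 and 0.974 in limma. The first 2 members had pure steps of 1.96 ± 0.47 and 2.14 ± 0.40 (SE) that missed the threshold, with limma adjusted p of 0.221 and 0.0967.

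The number of pure steps called depended on the settings, while the median step stayed between 0.60 and 0.81 under the alternatives run. Member 16 and member 17 lost their calls with normexp background correction, with steps of 1.05 and 2.30, and the count was then 0. Under normexp the median step was 0.62 for the members and 0.41 for all tested probes, so the members lay closer to the other probes than with the scanner's processed signal. The count was 6 with the authors' values, where 7 of all 14738 tested probes were called. With the test limited to probes above background on every array it was 7, where 11 of those 10108 probes were called. It was 1 with slide as a block, 6 with the 5 arrays left out and 0 with the pure groups fitted alone. With 1 array left out the count was 0 for replicates 2 and 3 of pure 1.25 ppm and for replicates 4 and 6 of pure 2.5 ppm. It was 1 for replicate 5 of pure 2.5 ppm and 4 for replicate 1 of pure 1.25 ppm. From slide as a block onward, these counts are given without the share of all tested probes. They are therefore not read as a result about the members. On slides 1 and 4, which held both pure doses, the median pure step of the members was 0.59 and 0.53, with 41 and 42 members above 0, against medians of -0.05 and -0.05 over the 10108 probes.

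The steps in the process waters were smaller and none was called. From 5 to 10 ppm of fresh process water the members had a median step of 0.13, with 34 of 50 above 0. The share above 0 was 69.6% of all tested probes and 57.5% of the 10108 probes. The test with limma called 0 members and 0 of all probes, and 2 members and 860 probes had an unadjusted p below 0.05. From 10 to 20 ppm of aged process water the median step was 0.18, with 37 of 50 above 0. The share above 0 was 72.1% of all tested probes and 64.4% of the 10108 probes. There limma again called 0 members and 0 probes, and 5 members and 351 probes had an unadjusted p below 0.05. Every array of the higher dose lay above every array of the lower dose in 7 members in the fresh series, against 6.31% of the 10108 probes, and in 7 members in the aged series, against 10.9%. In the aged series 7 of 50 lies near the background share.

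The members' medians of 0.13 and 0.18 stood against 0.25 in the fresh series and 0.18 in the aged series over all tested probes. Over the 10108 probes above background on every array the medians were 0.05 and 0.07. With quantile normalization the medians of the members were 0.15 and 0.15, and those of all tested probes -0.04 and -0.01. Without the 5 arrays the members' median step was 0.23 in the fresh series, with 41 above 0, and 0.17 in the aged series, with 33 above 0, against 0.05 and 0.11 for all tested probes. Within slides the fresh step had a median of 0.09 on slide 1 and -0.09 on slide 4, where fresh 10 ppm replicate 1 stands apart. The aged step had 0.23 on slide 1, where aged 20 ppm replicate 6 stands apart, and 0.46 on slide 4. Leaving out replicate 1 of aged 10 ppm gave a median aged step of 0.08 and leaving out replicate 3 gave 0.31, and the authors' values gave 0.05. Leaving out fresh 10 ppm replicate 3 took the members' median fresh step to -0.0036, with 25 members above 0.

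Counting all 3 sources, 26 members were higher at the higher dose in 3 sources, 16 in 2 sources and 8 in 1. Of the 10108 probes 15.8% were higher in 3 sources, 43.0% in 2, 30.4% in 1 and 10.8% in 0. Member 16 was among those with a positive step everywhere, with 0.57 ± 0.19 in the fresh series and 0.63 ± 0.19 in the aged series (SE) beside the pure step of 1.26, and neither passed in limma (adjusted p of 0.554 and 0.839). The differences between the steps of the sources were compared after the steps had been seen. The pure step minus the fresh step had a median of 0.55 over the members, with 47 above 0, and the pure step minus the aged step 0.53, with 45 above 0. In limma neither difference was called in any member or in any other probe, and 15 and 14 members had an unadjusted p below 0.05, against 870 and 425 of all tested probes. Member 17 had the largest of both, 2.66 ± 0.58 and 2.68 ± 0.58 (SE), with limma adjusted p of 0.696 and 0.866. The medians over all tested probes were -0.35 and -0.29, with 29.0% and 25.5% of them above 0. With quantile normalization the medians were 0.54 and 0.54 for the members, against 0.04 and 0.0024 for all tested probes. With normexp the members' median for pure minus aged, 0.30, lay below the 0.51 of all tested probes, and for pure minus fresh it was 0.38, against 0.21. The fresh step minus the aged step had a median of -0.0042, with 24 members above 0, 0 called in limma and 1 with an unadjusted p below 0.05.

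Fresh and aged process water shared 1 dose, 10 ppm, at which the response above each water's own salt control was compared. The fresh response minus the aged response had a median of 0.08 over the members and was above 0 in 33 of 50. Of all tested probes 65.3% were above 0. Of the 10108 probes above background on every array 51.3% were, with a median of 0.02. In limma 0 members and 0 of all probes were called, while 5 members and 4586 probes had an unadjusted p below 0.05, and all tested probes had a median of 0.47. The largest member differences were those of member 3, 2.14 ± 0.81 (SE), and of the first member, UF_Ppr_AF_111904, 1.64 ± 0.66 (SE), each with a limma adjusted p of 0.138. In these members the response at aged 10 ppm was the smallest of the 6 differences and set their rank. The fresh and the aged response both hold arrays that stand apart, fresh 10 ppm replicate 1 and aged salt replicates 7 and 9. Without them the median of the members was 0.39, with 43 above 0 and 0 called, 0 members had an unadjusted p below 0.05, and the median of all tested probes was -0.0015. On slide 2, which held all 4 groups, the members' median was 0.42 with 40 above 0, against 0.13 for the 10108 probes, and 1 of its 5 arrays stands apart. The sign of the median was not stable, at -0.09 without fresh 10 ppm replicate 3, -0.04 without aged salt replicate 7, -0.02 without aged salt replicate 8 and -0.0096 without aged 10 ppm replicate 1. With aged salt replicate 8 left out, 3 members and 4893 of all probes were called.

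Among the 3 salt controls no difference was called in the members. Each of these salt means was subtracted in the rule that chose the members, and all tested probes were not chosen so. The gaps and counts of the members are therefore a description. They cannot decide whether the controls differed less in the members than in other probes. The gap between the highest and the lowest of the 3 salt means had a median of 0.34 over the members. Its median was 0.51 over all tested probes and 0.36 over the 10108 probes. In the members limma's F statistic called 0, with a smallest adjusted p of 0.324 and 5 at an unadjusted p below 0.05. Over all tested probes 2 were called (0.0136%), and 2195 had an unadjusted p below 0.05. Without the 5 arrays the median gap was 0.48, with 0 members called. Leaving out aged salt replicate 8 gave 2 calls among the members, when 1657 of all probes were called.

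Averaged over both doses of a source, the members' median was 1.45 for pure acids, 1.16 for fresh and 1.14 for aged process water. The doses differ between sources, so these are given side by side and not compared. Across members the averages correlated at a Pearson r of 0.83 for pure and fresh, 0.75 for pure and aged, and 0.72 for fresh and aged (50 members, all read from the same arrays and chosen for being high in all 3). Without members 1 to 6 the values were 0.53, 0.44 and 0.38 over 44 members.

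The members' mean level over the 27 arrays, which includes the dose arrays that chose them, ran from -2.84 to 6.50, with a median of 1.1, against -0.82 for the 10108 probes, and 37 members were above that median. With the 10108 probes ordered into 4 equal classes by brightness, the classes held 2, 11, 10 and 27 members, from dim to bright. On the salt arrays alone their median level was 0.16, against -0.83, with 34 above that median and 16 below it, and the classes held 10, 6, 14 and 20. On the array their spots were spread over the upper and lower rows (26 and 24) and the left and right columns (29 and 21), with 2 pairs on neighbouring spots. Of their 1350 spots 1 was marked as not uniform and 0 as saturated.

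Members 18, 19, 21, 33, 37, 38 and 43 shared a contig number with 8 probes outside the set, of which 5 were well above background on every array and 2 had all 6 differences above 0. These members and relatives were singled out by name alone. In all relatives but that of member 18, the part of the name directly after the contig number differed from that of the member. The relative of member 18 bears the same contig name with the ending ms. It ranked 58 by the rule, and its differences were 1.82 and 2.30 in the fresh series, 0.64 and 1.22 in the aged series, and 1.16 and 1.85 in the pure series. Member 18 itself had 0.95 and 1.19, 1.18 and 1.39, and 1.39 and 2.30 in the same order. Both probes were higher at the higher dose of each source, and they differed in which source was highest. A relative of member 19 ranked 332, with differences of 0.23 to 0.58. The relative of member 21 lay below salt in all 6 comparisons, by -0.67 to -0.09. Whether probes with the same contig number read the same transcript was not tested.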

How the data were processed

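Total RNA of newly hatched larvae was labelled with Cy3 and hybridised to one-colour Agilent arrays, per the labels. The processed signal in the scanner files is a linear intensity for each spot, and per the file headers it was made with Feature Extraction 10.7.1.1. The files also hold the median signal and local background intensities as deposited, and flags of 0 or 1 (other units) per the file headers. The authors also deposited log2 values of the same arrays, whose normalization is not given in the sources used here and which served as an alternative. All 27 arrays were used, and 0 columns belonged to other samples.

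Of 15744 spots per array 536 control spots were left out. The 14738 probes well above background on at least 3 arrays were fitted with a mean per group in limma 3.58.1 (R 4.3.3) on the log2 processed signal, less each array's 75th percentile, with 18 residual degrees of freedom and Benjamini-Hochberg adjustment over all of them. Group means and ranks were made in Python 3.11.15. The fitting steps were tested on simulated data. The number of arrays limits the precision.

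The members, the gene lists and the alternatives were chosen with earlier results of these data known. Without gene names the lists of pathway and cell type genes could not be applied. Identifiers are given for members 1 and 2 only, and the others by rank. Alternatives were quantile normalization, normexp (offset 50, on the median signal), the authors' values, other filters, slide and replicate blocks, the compared groups alone, the 5 arrays left out, and each array left out. Slides are numbered 1 to 4. Probe sequences were not used here.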

Additional observations from a re-analysis of the deposited data

How the results depend on the processing

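The rule picked 36 of the 50 members again with quantile normalization, 34 with normexp, 35 with the authors' values, 48 with probes above background on at least 3 arrays and 34 without the 5 arrays. With 1 array left out it picked 38 to 49 again, lowest without aged salt replicate 9. The count of members called for the pure step, 2, became 0 with normexp, 6 with the authors' values and 7 with the filter on every array. Of all tested probes 0, 7 and 11 were called in these 3 settings. The members' count was 1 with slide as a block, 6 without the 5 arrays and 0 with the compared groups alone. Leaving out 1 array gave 0 to 4, and these last counts are given without the share of all tested probes. Fewer arrays and another set of tested probes come with some of these settings, and otherwise the cause was not tested. Fresh minus aged at 10 ppm gave 0 to 3 calls with 1 array left out, and the salt controls 0 to 2, both highest without aged salt replicate 8. Members called above salt at fresh 5, fresh 10, aged 10, aged 20, pure 1.25 and pure 2.5 ppm, in that order, numbered 0, 2, 0, 0, 0 and 22 with normexp (all tested probes 0, 2, 0, 0, 0 and 63), and 0, 0, 0, 0, 0 and 32 with the compared groups alone (all tested probes 0, 1, 0, 0, 0 and 111). Same-numbered samples of different sources deviated together in 11 of 27 pairs (r above 0.1, from -0.23 to 0.38 over all). For fresh and aged 10 ppm these were all 3 pairs, at 0.16, 0.11 and 0.14, but their salt arrays had -0.07, 0.26 and -0.0075. The fresh and pure salt arrays had 0.38, 0.13 and 0.18, and the aged and pure ones -0.11, 0.22 and -0.23. Since some pairs of both comparisons were not above 0.1, the numbers were not taken to pair the samples. With the replicate block 0 members were called for fresh minus aged, with a median of 0.08, and 0 for the salt controls. The 3 arrays per group limit what the tests can show, and probes dim on any array are outside the set.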

Other observations

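Within groups the members varied together. After each array's group mean was taken away, the 1225 pairs of members had a median correlation of 0.31 over the 27 arrays, and 82.7% of the pairs were above 0. Over all pairs of the 10108 probes the median was 0.0006 and the share above 0 was 50.1%. Without the 5 arrays the values were 0.29 and 84.3% for the members, over 20 arrays in groups with more than 1 array, against 0.02 and 52.0%. These are descriptions, since the pairs share arrays and scaling.

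The shared variation was visible on single arrays. At fresh 10 ppm 45 of the 50 members lay above their group mean on replicate 3, against 13 and 11 on replicates 1 and 2. At aged 10 ppm 47 did so on replicate 3, against 13 and 20 on replicates 1 and 2. At pure 2.5 ppm 42 did so on replicate 4, against 14 and 8 on replicates 5 and 6. Aged salt replicate 9, an array that stands apart, was the lowest salt array, with 7 members above the group mean, against 43 and 36 on replicates 7 and 8. Fresh 10 ppm replicate 3 and aged 10 ppm replicate 3 lay on slide 2. Pure 2.5 ppm replicate 4 lay on slide 3 and aged salt replicate 9 on slide 4. The other arrays of slide 2 went both ways. Members above the group mean numbered 17 on pure 1.25 ppm replicate 3 and 15 on fresh salt replicate 9. They numbered 35 on fresh salt replicate 7, 35 on pure salt replicate 7 and 43 on aged salt replicate 7. The part of the slide in these values was not tested.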
